A study of Homo sapiens with 6 samples.

Results

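The genes described here are the amino acid and neurotransmitter transporters of the solute carrier families SLC1, SLC3, SLC6, SLC7, SLC36, SLC38 and SLC43, in SK-BR-3 cells with and without siRNA against GRB2. They were taken as every protein-coding row of the count table whose symbol starts with one of these family names, which gave 51 of 30327 rows. One of them, SLC7A6OS, carries a family symbol but encodes a nuclear import factor and is no transporter. SK-BR-3 is a human breast cancer line that overexpresses HER2, and GRB2 is the adaptor that links receptor tyrosine kinases such as HER2 to RAS signalling. The 3 si_NC libraries came from cells given a nontargeting siRNA and the 3 si_GRB2 libraries from cells given siRNA against GRB2. The cells of both groups were grown in DMEM with fetal bovine serum. The sample titles and genotype labels speak of GRB2 overexpression, whereas the sample descriptions say si_GRB2, and the groups here follow the descriptions. The study's methods give 1 siRNA against GRB2, while its RNA quality records list samples of more than 1, and the labels do not say which gave these libraries. No source says whether the 3 libraries of a group were separate cultures, so the p-values measure the spread between these libraries, which may be technical.

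GRB2 itself was at 124 to 130 CPM (counts scaled to library size) in the si_NC libraries and at 27.8 to 29.6 CPM in the si_GRB2 libraries (log2 fold change −2.15, SE 0.04, adjusted p = 3.87e-15, edgeR). Its direction goes with the descriptions and against the overexpression titles. The libraries held 24810378 to 28532480 counted reads. Of 7 epithelial and HER2 markers, 6 were abundant, whereas CDH1, an epithelial adhesion gene, had 1 to 3 reads a library. These 6 moved in both directions: ERBB2, which encodes HER2, rose (3415 to 3557 CPM in si_NC, 3988 to 4229 CPM in si_GRB2) with a log2 fold change of 0.24 (adjusted p = 1.14e-06), while KRT8, KRT18, KRT19, EPCAM and GRB7 fell (−0.55 to −0.20). The summed level of the list was 17380 to 17770 CPM in si_NC and 14540 to 15130 CPM in si_GRB2, and the part of these changes in the results below was not tested. Markers of other cell types summed to 6.71 to 7.35 CPM in si_NC and to 5.37 to 6.72 CPM in si_GRB2 over 7 genes, each with at least 1 read in both groups. COL1A1 held most of that sum and did not pass (0.02), while ACTA2, a smooth muscle and myofibroblast gene, was at 1.29 to 2.28 CPM in si_NC and 0.477 to 0.830 CPM in si_GRB2, without overlap (log2 fold change −1.31, adjusted p = 0.00192). In these bulk libraries, fewer cells of a type and less RNA per cell cannot be told apart.

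Cells take up amino acids through carriers that work in series. Sodium-driven carriers such as those of SLC38 load the cell with small neutral amino acids, and exchangers such as SLC7A5 (LAT1) then trade them for leucine and other large essential amino acids. SLC7A5, a light chain, reaches the plasma membrane only as a pair with a heavy chain, SLC3A2 (4F2hc, CD98), held by a disulfide bond. The imported amino acids activate mTORC1 at the lysosome, where SLC38A9 senses arginine and SLC36A1 exports amino acids. When amino acids run short, GCN2 and ATF4 raise the transcription of several of these carriers. The SLC6 family carries neurotransmitters and osmolytes, among them creatine and taurine, and in epithelial cells also neutral amino acids.

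Promoter sequences are shown for members that the results below turn on, with matches to motifs of the factors known to act on this gene class. They come from the RefSeq promoter table of build GRCh38.p14, which held 60 windows of 300 bases for 38 of the 51 members (44 windows for 25 of the members tested for a change); windows of 1 gene are alternative starts. Positions count from the start base of the window shown, which is 1. For each gene 1 window is shown, and it holds the match marked. SLC7A5 has 1 window, SLC1A4 and SLC36A1 have 2, and SLC3A2 and SLC1A3 have 3. The start base is 62881699 for the SLC3A2 window and 151447603 for the SLC36A1 window. The annotated genes start at 62856004 and 151437046. Capitals mark the match. The first 2 lines show a light chain and the heavy chain, SLC7A5 with an E-box CACGTG at −130 (chr16:87869598-87869657, minus strand) and SLC3A2 with an antioxidant response element of the form TGACNNNGC at −37 (chr11:62881639-62881688, plus strand). The next 3 lines show members that fell. SLC1A4 holds an amino acid response element of the form TGATGNAA, here on the opposite strand, at −7 (chr2:64989354-64989408, plus strand) and SLC1A3 holds one at −220 (chr5:36596360-36596407, plus strand). SLC36A1 holds E-boxes at −43 and −8 (chr5:151447543-151447602, plus strand). Outside the stretches shown, the SLC7A5 window also holds TGACNNNGC at −2 and the SLC3A2 window TGATGNAA at 38. TGATGNAA was thus not particular to members that fell: SLC3A2, SLC1A5, SLC38A1 and SLC7A1, which did not pass the test, hold it as well. The other motifs were likewise not particular to members that changed. SLC1A5 and SLC38A7, which did not pass, hold CACGTG, and SLC7A1, SLC7A6 and SLC1A5, which did not pass either, hold TGACNNNGC.
SLC7A5 promoter: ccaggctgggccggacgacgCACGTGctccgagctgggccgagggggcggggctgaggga
SLC3A2 promoter: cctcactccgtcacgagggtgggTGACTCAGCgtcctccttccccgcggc
SLC1A4 promoter: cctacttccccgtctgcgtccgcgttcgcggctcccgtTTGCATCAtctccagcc
SLC1A3 promoter: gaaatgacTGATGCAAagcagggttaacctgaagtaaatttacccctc
SLC36A1 promoter: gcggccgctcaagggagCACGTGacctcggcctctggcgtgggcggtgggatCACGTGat

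Each motif was searched on both strands, and no motif overlapped another in the stretches shown. TGATGNAA was found in 6 of 44 windows of tested members (13.6%) and in 3.62% of all 35116 windows of the table. TGACNNNGC was found in 13.6% of the windows of tested members and in 13.4% of all windows. CACGTG was found in 11.4% and 7.26%. Among the 16 windows of members that passed the test below, 2 held TGATGNAA, 2 held TGACNNNGC and 3 held CACGTG. A match is a run of letters and not a site shown to bind a factor.

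Of the 51 members, 32 had enough reads to be tested and 19 did not. The 19 had 1 to 47 reads over all 6 libraries and at most 12 in a library. Among them were the noradrenaline and dopamine transporters SLC6A2 and SLC6A3, the GABA transporters SLC6A11 and SLC6A13, and the amino acid carriers SLC6A14 and SLC6A20 with the orphan SLC6A16. The light chains SLC7A7, SLC7A9 and SLC7A13 were also untested, as were SLC7A4 and SLC7A14 of the cationic group, SLC36A2 and SLC36A3, the system A and N transporters SLC38A3, SLC38A4 and SLC38A5, and SLC43A1 and SLC43A3. A member that passed the filter on low counts could do so through 1 group, so the shares below cover the tested members and not the families.

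Levels were compared between genes per length, as FPKM (fragments scaled to gene length and library size). The members' RNA was concentrated in a few carriers: SLC3A2 was at 158 FPKM over the 6 libraries, the glutamine carrier SLC1A5 (ASCT2) at 93.5, SLC7A5 at 85.0, the glutamine transporter SLC38A1 at 28.6 and the creatine transporter SLC6A8 at 16.8. These 5 held 84.3% of the summed FPKM of the members. SLC38A2, another system A transporter, followed at 15.3 FPKM, the arginine carrier SLC7A1 at 9.83 and the glycine carrier SLC6A9 at 7.40. The monoamine transporter SLC6A4 was at 0.178 FPKM. The deposited FPKM tracked the length of all annotated exons together, which for SLC3A2 is 6392 bases against 1885 in its canonical transcript. With CPM per kilobase of canonical transcript, an alternative chosen after seeing the data, the first 6 members kept their order and the first 5 held 88.1%.

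**Figure D1:**
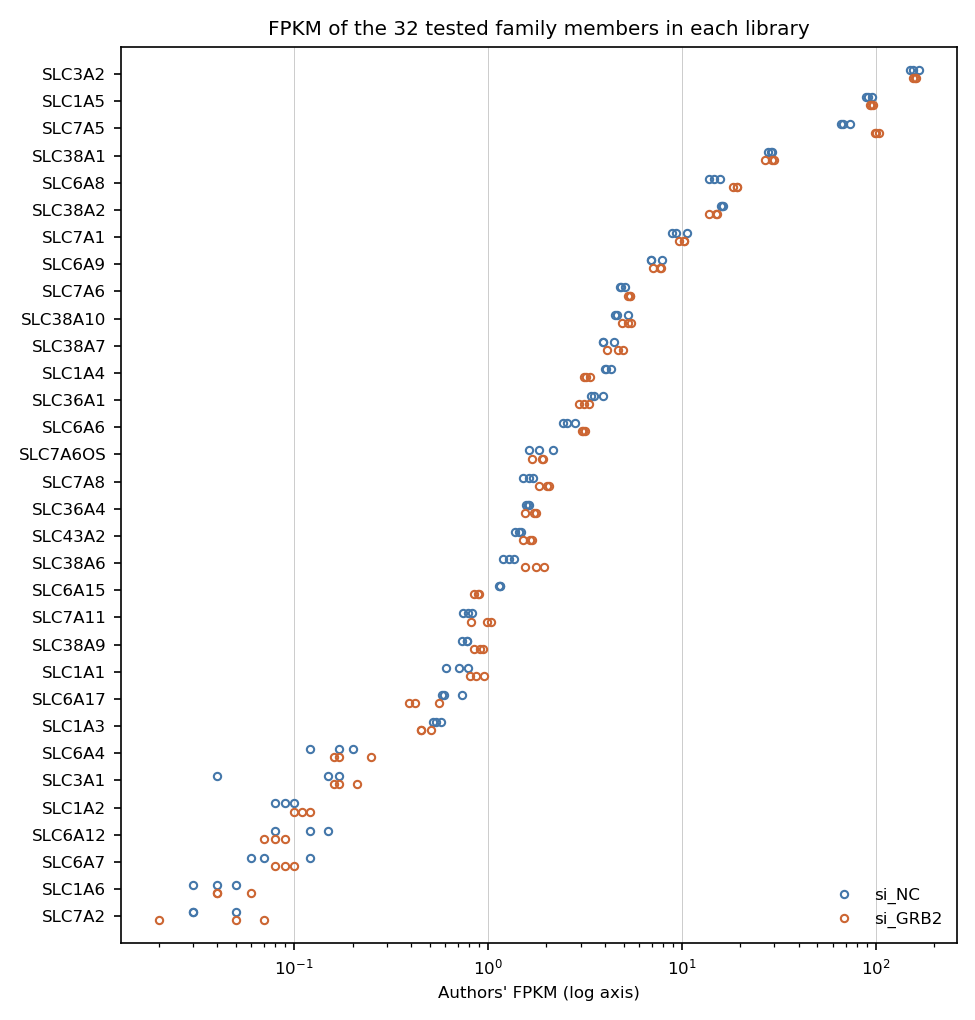
Deposited FPKM of the 32 tested members (log axis), 1 point a library, with si_NC and si_GRB2 libraries in different colours and members ordered by their mean. SLC3A2 stands highest at 158 FPKM and most SLC6 members stand below 10 FPKM.

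Neighbours in this order changed places between the groups. In si_NC, SLC1A5 was at 88.6 to 96.0 FPKM and SLC7A5 at 65.8 to 73.7. In si_GRB2, SLC1A5 was at 93.8 to 97.0 FPKM and SLC7A5 at 98.8 to 103.9, so that SLC7A5 was the higher one in every si_GRB2 library. This order depends on the length used: per kilobase of canonical transcript, SLC7A5 was at 128 CPM in si_GRB2 and SLC1A5 at 133. SLC6A8 (13.9 to 15.7 FPKM in si_NC, 18.3 to 19.3 in si_GRB2) stood below SLC38A2 (15.8 to 16.4 and 13.8 to 15.1) in every si_NC library and above it in every si_GRB2 library. Per kilobase of canonical transcript, SLC6A8 and SLC38A2 were at 26.6 and 27.2 CPM in si_NC and at 33.1 and 23.9 CPM in si_GRB2, which gives the same reversal.

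Of the 32 members tested with edgeR's quasi-likelihood test, 11 passed an adjusted p of 0.05 (34.4%), against 30.6% of all 15801 genes tested. The members are all protein-coding, and of the 12779 protein-coding genes tested 35.85% passed. 5 members rose (background 15.2%) and 6 fell (background 15.5%), so the shares were near those of all genes. No member was a differentially expressed gene by the study's limits on fold (above 1.5 or at most its inverse), with an adjusted p under 0.01, against 2.52% of all genes; DESeq2 likewise gave 0, and 14 members had an unadjusted p under 0.05 in edgeR. The groups did not overlap in 15 of the 32 members, against 42.3% of all genes, and the 15 included the 11 that passed. The median log2 fold change of the members was 0.08 and that of all genes 0.00; 22 members had a positive and 10 a negative value. Of the 188 other SLC genes tested, 75 passed (39.9%), and of the 41 mitochondrial carriers of the SLC25 family 12 passed (29.3%). SLC7A5, SLC6A8 and SLC1A4 also passed with limma on log2(FPKM + 1), where the 8 other members that passed in edgeR had adjusted p-values of 0.0834 to 0.514. In that fit 4.68% of all genes passed. The shares by gene group are descriptions, and no difference between the gene groups was tested.

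**Figure D2:**
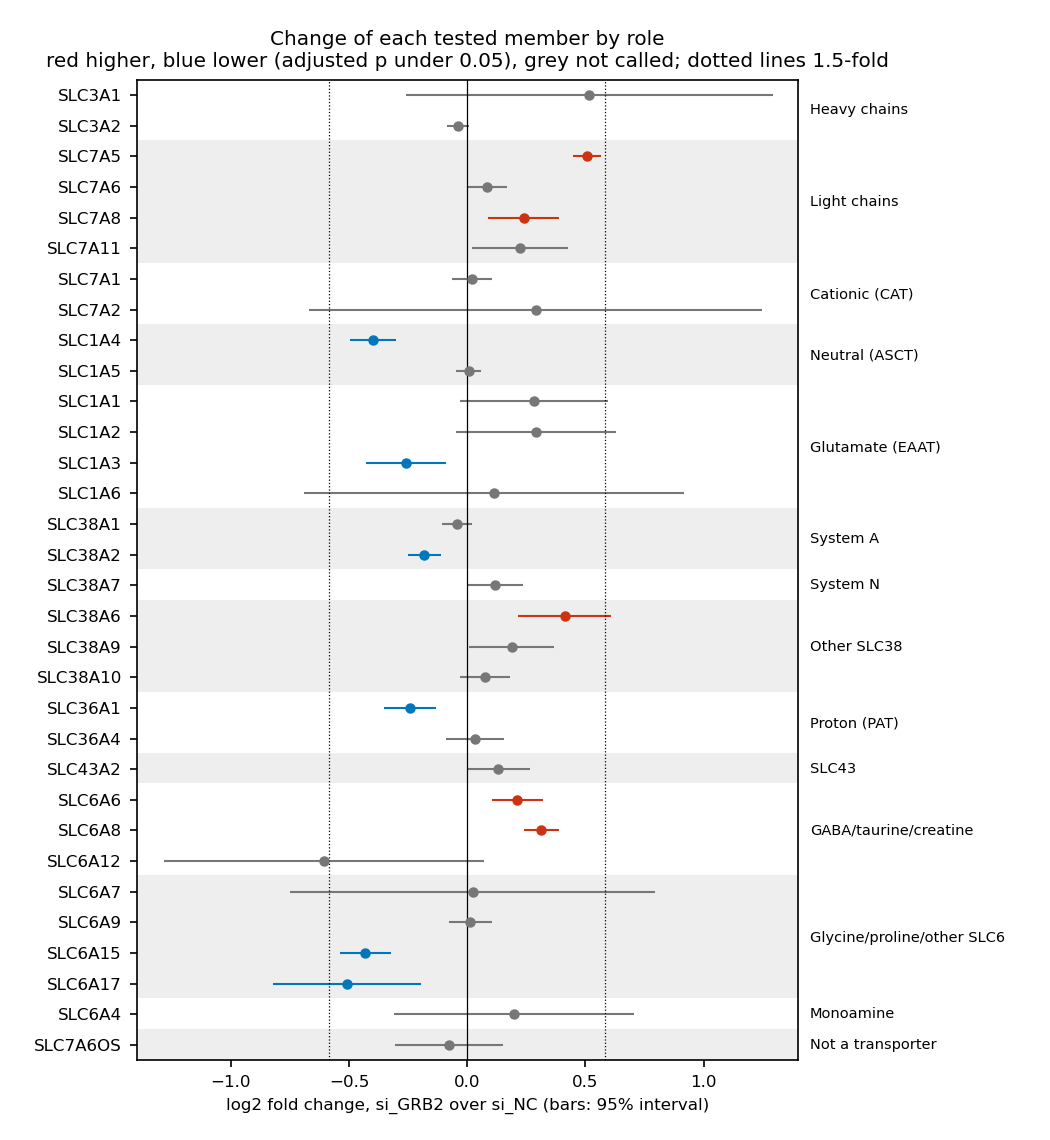
Log2 fold change of each tested member, si_GRB2 over si_NC, with its 95% interval, grouped by role; red members rose and blue ones fell at an adjusted p under 0.05, grey ones did not pass, and dotted lines mark a 1.5-fold change. The largest changes that passed are those of SLC7A5 (0.51), SLC6A17 (−0.51), SLC6A15 (−0.43), SLC38A6 (0.41) and SLC1A4 (−0.40).

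SLC7A5 was the most abundant member that passed, and it rose. Its gene lies on chromosome 16 (87830023 to 87869507, minus strand, GRCh38, GENCODE 44), and its E-box window is shown above. The si_NC libraries held 403, 404 and 420.4 CPM and the si_GRB2 libraries 596, 585 and 563 CPM. Every si_GRB2 library was above every si_NC library. The change was 1.42-fold (log2 fold change 0.51, SE 0.03, adjusted p = 1.54e-09). SLC7A5 kept its call in all 14 alternatives.

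SLC3A2, the heavy chain that SLC7A5 needs to reach the membrane, did not pass the test. Its gene is on chromosome 11 (62856004 to 62888880, plus strand). The si_NC libraries were at 1235, 1254 and 1277 CPM and the si_GRB2 libraries at 1232, 1218 and 1219.6 CPM. The si_GRB2 libraries lay just below the si_NC ones, without overlap. The log2 fold change was −0.04 (95% interval −0.08 to 0.01, adjusted p = 0.222). Its sign turned positive in 3 alternatives, all on FPKM.

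Within a library, the ratio of SLC7A5 to SLC3A2 FPKM was 0.437, 0.432 and 0.442 in si_NC and 0.649, 0.645 and 0.620 in si_GRB2, with every si_GRB2 library higher. An exact two-sided permutation test gave p = 0.1, the smallest that 3 against 3 libraries allow. The ratio was not planned, and it sets a member that passed over one that did not. Its test thus adds no support to the call of SLC7A5. The level of this ratio depends on the gene lengths, while its change between groups does not. SLC7A5 made up 16.0% ± 0.218 (SD, n = 3) of the members' summed FPKM in si_NC and 21.4% ± 0.457 (SD, n = 3) in si_GRB2. The share of SLC3A2 was 36.5% ± 0.292 and 33.5% ± 0.173. SLC3A2 itself was at 157.8 FPKM in si_NC and 158.4 in si_GRB2, while the members' summed FPKM was 432.5 and 473.3.

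The other light chains were far less abundant. SLC7A5 held 90.4% of the summed FPKM of SLC7A5, SLC7A6, SLC7A7, SLC7A8 and SLC7A11 in si_NC and 92.4% in si_GRB2. SLC7A8 (LAT2), which carries a wide range of neutral amino acids, rose from 12.5, 11.5 and 12.2 CPM to 13.6, 14.6 and 14.4 CPM without overlap of the groups (log2 fold change 0.24, SE 0.07, adjusted p = 0.0176). That call rests on single libraries and on the tool: it was lost without si_NC replicate 2 (0.20, adjusted p = 0.0795), without si_GRB2 replicate 2 (0.22, adjusted p = 0.0739), without si_GRB2 replicate 3 (0.23, adjusted p = 0.0538) and with DESeq2 (0.24, adjusted p = 0.0649). SLC7A11 (xCT), the cystine importer that feeds glutathione synthesis, had a log2 fold change of 0.22 (adjusted p = 0.0933), with groups that overlapped, and passed without si_GRB2 replicate 1 (0.30, adjusted p = 0.0342). SLC7A6, which exchanges cationic for neutral amino acids, was at 0.08. Its reads share a locus with SLC7A6OS on the opposite strand, whose reads were 25.1% of its own, and the strand setting of the counting is not given in the sources used here.

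**Figure D3:**
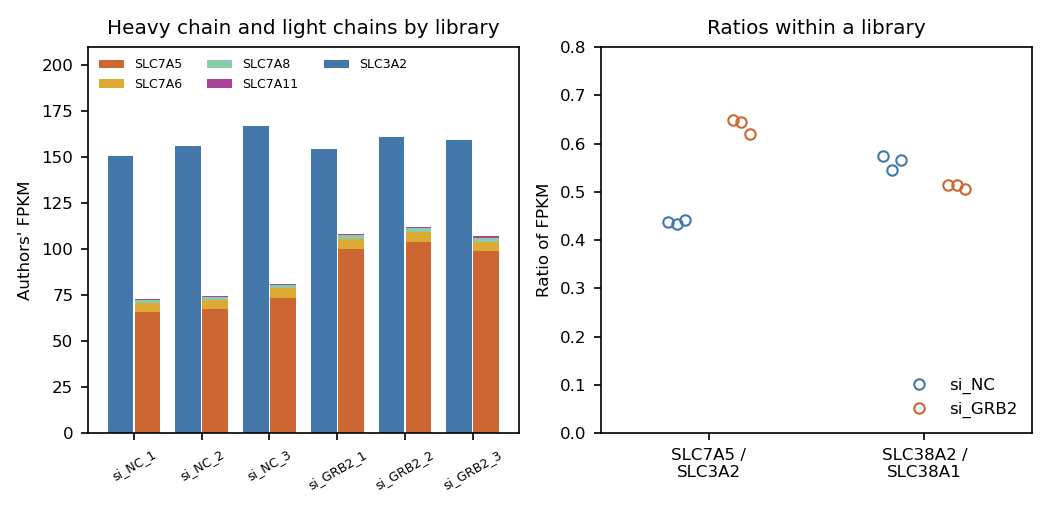
Left, deposited FPKM of the heavy chain SLC3A2 and of the stacked light chains SLC7A5, SLC7A6, SLC7A8 and SLC7A11 in each library; right, ratios of 2 members' FPKM within each library. The SLC7A5 to SLC3A2 ratio is 0.432 to 0.442 in si_NC and 0.620 to 0.649 in si_GRB2.

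The cationic amino acid transporters and SLC43 did not pass. SLC7A1, the main arginine uptake route in many cells, had a log2 fold change of 0.02 and SLC7A2 of 0.29 on 63 reads in all, which ranged from −0.07 to 0.72 on leaving out a library. SLC43A2 (LAT4), a facilitated carrier of branched-chain amino acids, was at 0.13. SLC3A1, the other heavy chain of the SLC3 family, was at 0.52 with an SE of 0.37. That value rests on si_NC replicate 3, which had 8 reads against 32 to 43 in the other libraries, and without it the log2 fold change was 0.06 (SE 0.24, adjusted p = 0.886). SLC3A1 also overlaps PREPL on the opposite strand, which had far more reads.

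Of the neutral exchangers of the SLC1 family, SLC1A4 passed and SLC1A5 did not. SLC1A4 (ASCT1, chromosome 2, 64988477 to 65023865, plus strand) carries serine, alanine and cysteine. It fell from 36.01, 34.9 and 36.01 CPM in si_NC to 27.1, 27.5 and 26.5 CPM in si_GRB2, with the groups well apart (log2 fold change −0.40, SE 0.05, adjusted p = 5.37e-06). It kept its call in all 14 alternatives. SLC1A5 (ASCT2, chromosome 19, 46774883 to 46788594, minus strand), the main glutamine exchanger of many tumour cells, was at 379, 382 and 383 CPM in si_NC and at 389.6, 382 and 377 CPM in si_GRB2. Its groups overlapped, with a log2 fold change of 0.01 (95% interval −0.05 to 0.06, adjusted p = 0.883), and its sign changed in 3 alternatives. The ratio of SLC1A4 to SLC1A5, also not planned, was 0.0449 ± 0.000906 in si_NC and 0.0339 ± 0.000600 in si_GRB2 (SD, n = 3). Its exact two-sided permutation test gave p = 0.1, the smallest possible, and adds no support to the call of SLC1A4.

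Of the glutamate transporters, SLC1A3 (EAAT1), known from astrocytes, fell from 15.6, 14.5 and 13.2 CPM to 11.96, 12.8 and 11.4 CPM. The groups did not overlap, and the log2 fold change was −0.26 (SE 0.08, adjusted p = 0.0209). The call was lost with DESeq2 (−0.26, adjusted p = 0.0544) and without si_NC replicate 1 (−0.21, adjusted p = 0.0891), si_NC replicate 2 (−0.26, adjusted p = 0.0542), si_GRB2 replicate 1 (−0.25, adjusted p = 0.0560) or si_GRB2 replicate 3 (−0.22, adjusted p = 0.0886). SLC1A1, SLC1A2 and SLC1A6, which also take up glutamate, had log2 fold changes of 0.28, 0.29 and 0.11 and did not pass. Their SEs were 0.15, 0.16 and 0.38. SLC1A6 had 65 reads in all and ranged from −0.20 to 0.28 on leaving out a library.

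The system A transporters SLC38A1 and SLC38A2 load the cell with glutamine and alanine. SLC38A2 fell from 134, 129.6 and 127 CPM to 112, 115 and 118 CPM, without overlap (log2 fold change −0.18, SE 0.03, adjusted p = 5.35e-04). SLC38A1 (chromosome 12, 46183063 to 46270017, minus strand) was at 359, 365 and 346 CPM in si_NC and 335, 344 and 358 CPM in si_GRB2. The groups of SLC38A1 overlapped, with a log2 fold change of −0.04 (95% interval −0.11 to 0.02, adjusted p = 0.303). The FPKM ratio of SLC38A2 to SLC38A1, also not planned, was 0.562 ± 0.0144 in si_NC and 0.511 ± 0.00461 in si_GRB2 (SD, n = 3). Its exact two-sided permutation test gave p = 0.1, the smallest possible, and adds no support to the call of SLC38A2.

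Among the other SLC38 members, SLC38A6 (chromosome 14, 60981114 to 61114316, plus strand) rose. It was at 8.45, 7.73 and 8.38 CPM in si_NC and at 9.97, 10.7 and 12.01 CPM in si_GRB2, and the groups did not overlap (log2 fold change 0.41, SE 0.09, adjusted p = 0.00276). Its locus overlaps TRMT5 on the opposite strand, which had 270% of its reads and did not pass (−0.04, adjusted p = 0.634). The lysosomal arginine sensor SLC38A9 was at 0.19 (adjusted p = 0.111), with no overlap between the groups. SLC38A7, which exports glutamine from lysosomes, was at 0.12 (adjusted p = 0.113) and passed without si_GRB2 replicate 1 (0.17, adjusted p = 0.0239). SLC38A10 was at 0.07.

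The lysosomal exporter SLC36A1 (PAT1), whose promoter window with 2 E-boxes is shown above, fell from 31.3, 29.6 and 32.7 CPM to 25.7, 27.4 and 26.1 CPM. All si_GRB2 libraries were below all si_NC libraries (log2 fold change −0.24, SE 0.05, adjusted p = 0.00184). Its relative SLC36A4 was at 0.03 and did not pass.

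Of 3 carriers of creatine, taurine, betaine and GABA that were tested in the SLC6 family, 2 rose. SLC6A8 (chromosome X, 153687926 to 153696588, plus strand), which imports creatine, rose from 107, 99.3 and 107 CPM to 129.8, 129.9 and 131 CPM (log2 fold change 0.31, SE 0.04, adjusted p = 4.82e-06). The groups stood apart by more than the spread within either, and the call held in all 14 alternatives. SLC6A6, the taurine transporter, rose from 27.1, 25.3 and 27.8 CPM to 31.9, 30.8 and 30.2 CPM (log2 fold change 0.21, SE 0.05, adjusted p = 0.00442), again without overlap. SLC6A12, the betaine and GABA transporter, was at −0.60 with an SE of 0.32 on 104 reads in all and did not pass. It ranged from −0.80 to −0.35 on leaving out a library.

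Of 4 carriers of glycine, proline and other amino acids tested in this family, 2 fell. SLC6A15 (chromosome 12, 84859491 to 84913629, minus strand), which takes up proline and branched-chain amino acids, fell from 29.8, 29.0 and 27.8 CPM to 21.3, 21.2 and 21.7 CPM, with no overlap (log2 fold change −0.43, SE 0.05, adjusted p = 7.91e-06). SLC6A17 (chromosome 1, 110150494 to 110202202, plus strand), a vesicular carrier of neutral amino acids in neurons, fell from 4.96, 4.90 and 5.81 CPM to 3.497, 4.37 and 3.12 CPM. Its groups did not overlap (log2 fold change −0.51, SE 0.15, adjusted p = 0.0144). It lost its call without si_GRB2 replicate 1 (−0.48, adjusted p = 0.0531) or replicate 3 (−0.41, adjusted p = 0.0796), while without si_GRB2 replicate 2 it also passed the fold limit (−0.66, adjusted p = 0.00731). The glycine transporter SLC6A9, the proline transporter SLC6A7 and the serotonin transporter SLC6A4 were at 0.01, 0.02 and 0.20 and did not pass. Their SEs were 0.04, 0.36 and 0.24. SLC6A7 had 73 reads in all and SLC6A4 had 239. On leaving out a library, SLC6A7 ranged from −0.14 to 0.36 and SLC6A4 from −0.01 to 0.37. CAMK2A, which overlaps SLC6A7 on the opposite strand, had 119% of its reads. SLC7A6OS, which is no transporter, was at −0.08.

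**Figure D4:**
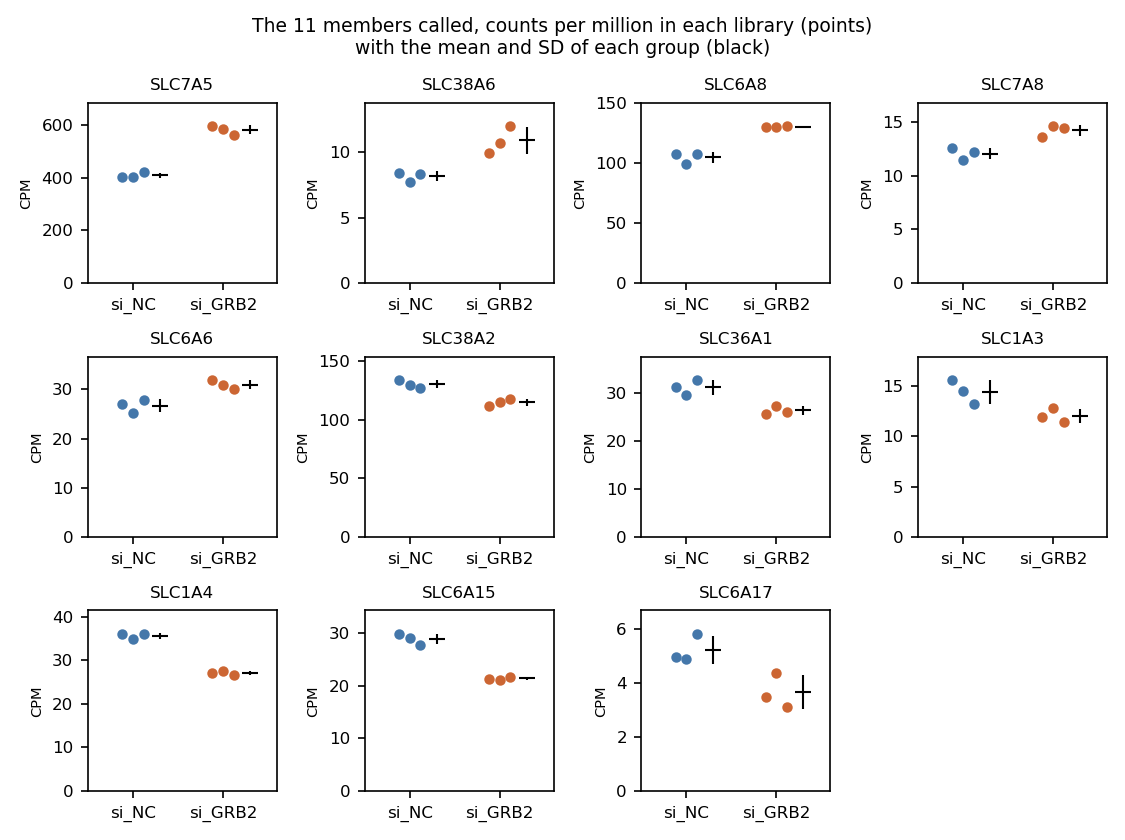
CPM of the 11 members that passed in each library (points), with the mean and SD of each group in black; axes start at 0. SLC7A5 lies at 403 to 420.4 CPM in si_NC and 563 to 596 CPM in si_GRB2, and in each panel the groups do not overlap.

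Around the transporters, the amino acid response genes fell more often than they rose. Of 26 tested, 2 rose and 13 fell, with a median log2 fold change of −0.17. The 15 that passed were 57.7% of those tested, against 30.6% of all genes and 35.85% of protein-coding genes. Of all genes, 15.2% rose and 15.5% fell. CHAC1, which degrades glutathione, was at −0.55, NUPR1, a stress-induced cofactor, at −0.49, PHGDH, the first enzyme of serine synthesis, at −0.47 and ATF5, a factor of the same response, at −0.44. The 2 that rose, named after their values were seen, were the pseudokinase TRIB3 (0.11) and EIF2AK4 (0.24), which encodes GCN2. ATF4, DDIT3 and ATF3, also named after their values were seen, did not pass in edgeR. They were at −0.03, 0.10 and −0.08 (adjusted p = 0.494, 0.423 and 0.506). In the limma tests on FPKM of all genes, 7 of the list passed, and 15 did once genes with a mean FPKM under 1 were left out. Of all genes, 4.68% and 5.13% passed in the first tests and 24.7% after that filter.

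Of 34 genes of mTORC1 and its amino acid sensing, 5 rose and 5 fell (median 0.05). TFEB, the lysosomal biogenesis factor, was at 0.42, the RAG GTPases RRAGD and RRAGC at 0.33 and 0.23, and MIOS, a GATOR2 subunit, at −0.28. The count was 5 without si_NC replicate 2, 4 without si_GRB2 replicate 2 and 6 without si_GRB2 replicate 3. All genes passed at 24.65%, 23.95% and 25.74% in these fits.

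Of 18 enzymes of glutamine, glutamate and glutathione, 2 rose and 3 fell (median −0.03). GFPT1, which uses glutamine to make hexosamines, was at 0.39 and GCLM, a subunit of the first enzyme of glutathione synthesis, at 0.17. GSS, which completes glutathione, was at −0.38, CAD, which uses glutamine for pyrimidines, at −0.28, and glutamine synthetase GLUL, named after its value was seen, at −0.09.

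Of 16 other carriers of amino acids, peptides and neurotransmitters that were tested, 4 rose and 3 fell (median 0.13). SLC29A4, a monoamine carrier, was at 0.68 and was the 1 differentially expressed gene of this list. SLC17A5, the lysosomal sialic acid carrier, was at 0.41, SLC22A5, the carnitine carrier, at −0.45 and SLC15A3, a lysosomal peptide carrier, at −0.35.

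Of 10 partners and regulators of the transporters, none rose and 5 fell (median −0.18). TXNIP, which promotes the internalization of glucose transporters, was at −0.93 and was the 1 differentially expressed gene of this list. The ubiquitin ligases NEDD4L and NEDD4, which act on several transporters, were at −0.35 and −0.26, and MYC, a transcription factor that binds E-boxes, was at −0.24. No list was tested as a set, and these counts stand beside 30.6% of all genes and 35.85% of protein-coding genes that passed.

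**Figure D5:**
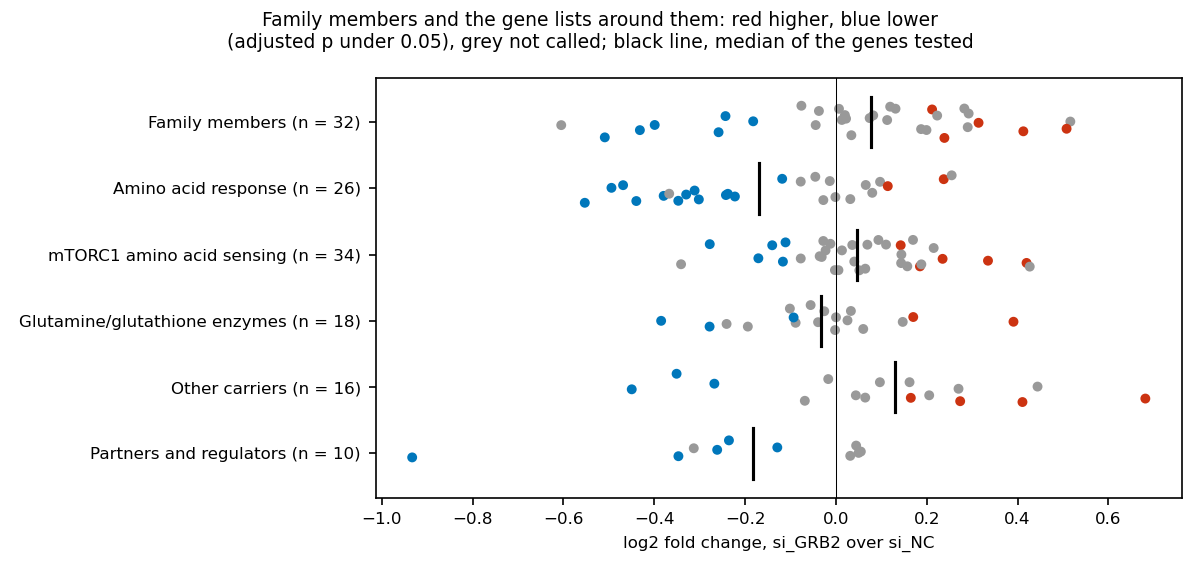
Log2 fold change of each tested gene (points), si_GRB2 over si_NC, for the members and the gene lists, coloured red for higher, blue for lower and grey for not passing at an adjusted p of 0.05; the black line is the median. The medians are 0.08 for the members, −0.17 for amino acid response genes and −0.18 for partners and regulators.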

How the data were processed

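Messenger RNA of 3 si_NC and 3 si_GRB2 libraries was captured on beads, made into strand-specific libraries and sequenced in pairs. The authors aligned the reads to GRCh38 with HISAT2, kept unique alignments, and deposited read counts per gene and FPKM per gene. The counting tool, its strand setting and the annotation are not given in the sources used here. The counts were tested with edgeR 4.0.16 in R 4.3.3: filterByExpr, TMM factors, the quasi-likelihood test of si_GRB2 against si_NC without covariates, and Benjamini-Hochberg adjustment over all 15801 genes kept. CPM are counts scaled to TMM library sizes. The deposited FPKM served for levels between genes. Count-based alternatives were DESeq2 1.42.0, its size factors, no filter, a mean of at least 1 CPM, a replicate block and leaving out each library. On FPKM, limma 3.58.1 was run on log2(FPKM + 1) and log2(FPKM + 0.1) of all genes. It was also run on log2(FPKM + 1) of the genes with a mean FPKM of at least 1. The scripts were checked on simulated data. Statistics were given in full for members past the test with an absolute log2 fold change of at least 0.3 and for the 5 highest by FPKM, and at most 4 genes a list were named by largest change; CPM were also printed for the other members that passed, chosen after their values were seen. Members and lists were chosen with earlier results of these data known. Gene positions are from GENCODE 44, where all 51 member IDs were found (44 with the same version), and promoter sequences from RefSeq. Intervals are 95%.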

Additional observations from a re-analysis of the deposited data

How the results depend on the processing

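Directions did not reverse for any called member in the alternatives run, and SLC7A5, SLC6A8 and SLC1A4 passed in all 14. The count of members that passed was 3 (2 higher, 1 lower) with limma on log2(FPKM + 1) and also on log2(FPKM + 0.1). These were 6% of the members in each fit, against 4.68% and 5.13% of all genes. With a mean FPKM of at least 1 the count was 6 (4 higher, 2 lower), or 30%, against 24.7% of all genes. The cause of these lower counts was not tested. Leaving out 1 library gave 8 to 11 that passed, 4 to 7 higher, 4 to 6 lower and 0 to 1 differentially expressed (SLC6A17, without si_GRB2 replicate 2). The share of all genes that passed on leaving out a library was 23.95% to 28%. The median log2 fold change of the members was 0.0447 without a filter on counts, 0.0703 with a mean of at least 1 CPM, 0.00550 on log2(FPKM + 1), 0.0458 on log2(FPKM + 0.1), 0.0548 with a mean FPKM of at least 1, and 0.0521 to 0.0665 on leaving out a library. Genes that passed among amino acid response, mTORC1, glutamine and glutathione, other carrier, and partner genes numbered 7, 2, 2, 4 and 1 on log2(FPKM + 1) and 7, 3, 2, 4 and 1 on log2(FPKM + 0.1). With a mean FPKM of at least 1 there were 15 amino acid response, 4 mTORC1, 3 glutamine and glutathione, 5 other carrier and 2 partner genes. These stand beside 24.7% of all genes that passed there, and the counts before them beside 4.68% and 5.13%. Leaving out a library gave 15 amino acid response, 4 to 9 mTORC1, 4 to 6 glutamine and glutathione, 5 to 7 other carrier and 4 to 5 partner genes. The 5 highest members held 88.1% of the summed level per kilobase of canonical transcript, against 84.3% on FPKM.

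Deviations of libraries with the same number correlated at 0.23, −0.09 and 0.08, and those with different numbers at −0.28 to 0.23. These are deviations from group means of 3 libraries, which constrain each other. They cannot settle whether the numbers pair the libraries. With the replicate block, 11 members passed, 5 higher and 6 lower, the same 11 members. The 19 untested members had too few reads for a test. SLC6A12, SLC3A1, SLC7A2, SLC6A7, SLC1A6 and SLC6A4 had wide intervals on 104, 192, 63, 73, 65 and 239 reads. For SLC3A1 the SE was 0.24 without si_NC replicate 3.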
